A study of Arabidopsis thaliana with 34 samples.

Results

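Alpha-expansins are small secreted proteins that loosen the plant cell wall at acid pH without cutting its polymers. Proton pumps of the plasma membrane acidify the wall and so bring expansins into action, and different members of the family serve different organs, among them growing leaves, roots and root hairs. The 10 genes described here are EXPA4 (AT2G39700), EXPA7 (AT1G12560), EXPA8 (AT2G40610), EXPA9 (AT5G02260), EXPA15 (AT2G03090), EXPA16 (AT3G55500), EXPA18 (AT1G62980), EXPA20 (AT4G38210), EXPA21 (AT5G39260) and EXPA24 (AT5G39310). Within the family, the rule that picks them uses annotation alone: they are the alpha-expansin loci for which a probe set of the array was annotated to a single gene. The choice of these members was made with earlier results of these data known. They make up 10 of the 13356 genes that could be named on the array, and each had 1 probe set. Of 26 alpha-expansin loci listed for this report, the 16 that had no probe set of their own in the annotation used were not analysed here. Another 2 probe sets, annotated to 2 alpha-expansin genes each, were not used.

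The study followed leaf transcripts on 34 Affymetrix ATH1 arrays during sub-zero acclimation, in which plants already hardened in the cold are held just below freezing. The accessions were Tenela (Te), Rschew (Rsch) and Columbia-0 (Col). Plants of all 3 had been grown for 42 days at a day length of 16 h. They were then cold acclimated at 4 °C for 14 days at a light level of 90 µmol. Leaves of such plants, still attached, formed the cold acclimated groups (CA). For the sub-zero groups, leaves were cut from cold acclimated plants, placed in tubes with water and kept supercooled in the dark at -3 °C, and they were sampled after 8 h, after 1 d and after 3 d. Of the 12 groups 2 had 2 arrays, the 8 h and the 3 d group of Col, and every other group had 3. An array measured the pooled RNA of 3 leaves from 3 plants. A sub-zero group differed from its cold acclimated group in temperature, light, time and detachment together, and these cannot be told apart. No group was kept without cold acclimation.

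Values are log2 intensities, so a difference of 1 is a change of 2-fold, and array medians lay between 5.97 and 6.22. Rubisco activase (RCA), a leaf mesophyll marker, read 11.1 to 12.9 over all arrays. On the bioC hybridisation controls, 9 arrays stood apart from the other 25, with a mean of 7.05 against 8.34. These 9 carried the number 1 and came from every accession, in each from cold acclimated leaves and from the groups at 1 d and at 3 d, and what sets them apart is not given in the sources used here. In a score that runs from 0 for cold acclimated leaves to 1 for leaves at 3 d, over the 200 probe sets with the largest change at 3 d in the other accessions, the Te 1 d array numbered 1 read 0.954, and its group mates read 0.725 and 0.693. The Te 3 d array numbered 1 read 0.814, and its group mates read 1.03 and 1.00. Each of these 2 libraries thus scored nearer to the group mates of the other than to its own, and whether they were exchanged was not tested. They are called by their labels here, and results were recomputed without them. The Rsch 3 d array numbered 1 read 0.692, and its group mates read 0.898 and 0.862. It lay below the Rsch arrays at 1 d, which read 0.718, 0.747 and 0.812. In Col at 3 d the array numbered 1 read 0.901 and the other read 1.02. In every accession the 3 d array with low bioC controls thus scored lowest of its group.

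The 10 members differed in how far they stood above the dim end of the array, taken as the 40th percentile of all values, a log2 intensity of 5.32. In 4 members, EXPA4, EXPA9, EXPA15 and EXPA20, the highest group mean lay above that level, and in the other 6 it did not. EXPA4, EXPA15 and EXPA20 lay above it on 33, 34 and 34 arrays, and EXPA9 on 13. Of the 6 dim members, EXPA7 and EXPA18 are expansins of root hairs, a cell type that a leaf lacks. EXPA7 read 4.52 to 5.40 and EXPA18 read 3.88 to 4.65 over the 34 arrays. EXPA8, EXPA16, EXPA21 and EXPA24 read between 3.41 and 5.19. A probe set's intensity depends on its own probes, so these levels do not rank the genes, and a dim reading does not show that a transcript is absent. EXPA21 and EXPA24 lie at the ends of a run of 6 neighbouring alpha-expansin genes on chromosome 5. Their probe sets were each annotated to a single gene, and whether they also measured a neighbouring gene was not tested.

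**Figure D1:**
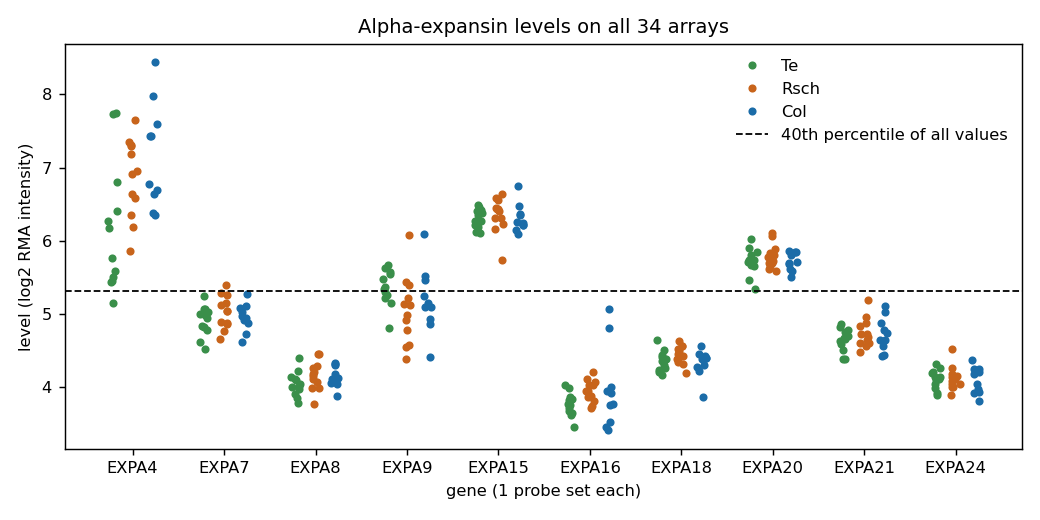
Log2 intensity of the 10 alpha-expansin probe sets on all 34 arrays, with each point an array, coloured by accession, and all conditions together. EXPA4 covers the widest range, 5.15 to 8.44, and the dashed line at 5.32 marks the 40th percentile of all values.

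The spread of the members over the 12 groups was uneven. The group means of EXPA4 spanned 2.33 log2 units and those of EXPA9 spanned 0.96, while the spans of the other 8 members were between 0.25 and 0.44. The standard deviation between arrays of a group, pooled over the groups, was 0.61 for EXPA4, 0.34 for EXPA9 and 0.37 for EXPA16, and 0.16 to 0.21 for the rest. EXPA4 was therefore both the member with the widest span of group means and the one with the widest spread within groups. In EXPA16 2 arrays of Col stood apart, since the CA array numbered 3 read 5.07 and the 1 d array numbered 3 read 4.82, and the remaining arrays read 3.41 to 4.21.

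EXPA4 fell during sub-zero acclimation. In Te leaves it read 7.74, 6.40 and 6.18 at CA, 6.81, 5.44 and 5.77 at 8 h, 7.75, 5.46 and 5.51 at 1 d, and 6.27, 5.59 and 5.15 at 3 d. In each of these 4 conditions the array numbered 1 was the highest, and every sub-zero group of Te overlapped its cold acclimated group. In Rsch leaves EXPA4 read 7.30, 7.66 and 7.31 at CA, 6.64, 7.36 and 6.91 at 8 h, 5.86, 6.35 and 6.59 at 1 d, and 7.18, 6.20 and 6.95 at 3 d. All Rsch arrays at 1 d and 3 d lay below all cold acclimated Rsch arrays, and the 8 h arrays overlapped them. In Col leaves EXPA4 read 7.59, 8.44 and 7.98 at CA, 7.43 and 7.44 at 8 h, 6.70, 6.38 and 6.78 at 1 d, and 6.64 and 6.36 at 3 d. In Col no sub-zero array reached the lowest cold acclimated array.

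Averaged over the 3 accessions with equal weight, EXPA4 at 8 h was -0.60 ± 0.28 (SE) log2 units from cold acclimated leaves, which did not pass the test (limma, Benjamini-Hochberg adjusted p = 0.217). At 1 d it fell by 1.03 ± 0.27 (SE), with a 95% interval of -1.58 to -0.47 and an adjusted p of 0.00643 by limma. At 3 d it fell by 1.08 ± 0.28 (SE), with a 95% interval of -1.66 to -0.50 and an adjusted p of 0.00365 by limma. These changes put EXPA4 at 1 d 2.03-fold and at 3 d 2.12-fold below its cold acclimated level. Of the sub-zero arrays, 7 of 8 at 8 h, 8 of 9 at 1 d and 8 of 8 at 3 d lay below the cold acclimated mean of their own accession, and the exception at 1 d was the Te array numbered 1. Without the Te 1 d and Te 3 d arrays numbered 1, EXPA4 fell by 1.28 at 1 d and by 1.18 at 3 d (limma adjusted p = 8.29e-05 and 0.000166). The 3 comparisons use the same cold acclimated arrays and are not independent of each other. In pooled leaf RNA, fewer cells of a type and less RNA per cell cannot be told apart.

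EXPA9 also fell, and passed the test at 1 d and 3 d. In Te leaves it read 5.55, 5.67 and 5.58 at CA, 5.30, 5.26 and 5.35 at 8 h, 5.15, 5.22 and 5.63 at 1 d, and 5.48, 5.38 and 4.82 at 3 d. The Te arrays at 8 h and 3 d all lay below the cold acclimated Te arrays, and those at 1 d overlapped them. In Rsch leaves EXPA9 read 6.08, 5.15 and 4.92 at CA, 5.44, 5.39 and 4.79 at 8 h, 5.23, 5.12 and 4.58 at 1 d, and 4.38, 4.99 and 4.56 at 3 d. Every sub-zero group of Rsch overlapped the cold acclimated Rsch arrays. In Col leaves EXPA9 read 6.10, 5.25 and 5.46 at CA, 5.52 and 5.09 at 8 h, 5.15, 5.09 and 4.87 at 1 d, and 4.41 and 4.94 at 3 d. The Col arrays at 1 d and 3 d lay below every cold acclimated Col array, and those at 8 h overlapped them. The highest values of EXPA9, 6.10 and 6.08, belong to the cold acclimated arrays numbered 1 of Col and Rsch, which are both among the 9 arrays with low bioC controls.

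**Figure D2:**
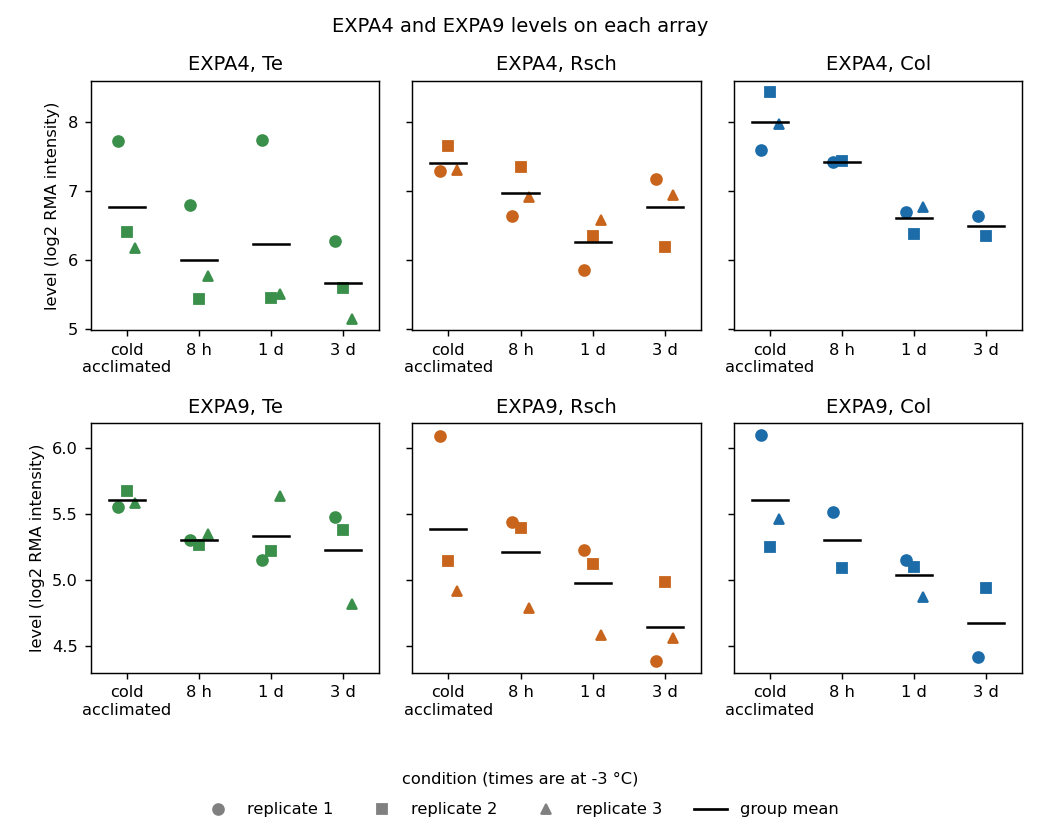
Log2 intensity of EXPA4 and EXPA9 on every array, at CA and after 8 h, 1 d and 3 d at -3 °C, by accession, with symbols for arrays by replicate number and black lines for group means. For EXPA4 the Te array numbered 1 is the highest of Te in each condition, and in Col every sub-zero array lies below the lowest cold acclimated array, 7.59.

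Averaged over accessions, EXPA9 at 8 h was -0.26 ± 0.16 (SE) from cold acclimated leaves, which did not pass the test (limma adjusted p = 0.353). At 1 d it fell by 0.41 ± 0.15 (SE), with an adjusted p of 0.0497 by limma, just under the threshold of 0.05. At 3 d it fell by 0.68 ± 0.16 (SE), with a 95% interval of -1.01 to -0.35 and an adjusted p of 0.0015 by limma, which put the intensity 1.60-fold below its cold acclimated level. Below the dim level of 5.32 lay 6 of 8 arrays of EXPA9 at 3 d, against 3 of 9 cold acclimated arrays, so the fold is a ratio of dim intensities. EXPA9 lay below the cold acclimated mean of its own accession on 6 of 8 arrays at 8 h, 8 of 9 at 1 d and 8 of 8 at 3 d. The call at 1 d was lost in 6 of 12 alternative treatments of the data and on leaving out any of 23 of the 34 arrays. Among the 25 arrays with the higher bioC controls, the difference of EXPA9 was -0.25 at 1 d and -0.40 at 3 d, and neither passed the test. Over those 25 arrays EXPA4 fell by 1.15 at 1 d and by 1.23 at 3 d. Only 1 of the 25 was from Col at 3 d.

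Read over the family, none of the 10 members was called at 8 h against cold acclimated leaves, at a limma adjusted p under 0.05, when 5.94% of all 22746 probe sets were (3.36% higher and 2.59% lower), and 1, EXPA4, had an unadjusted p under 0.05. At 1 d 2 of 10 were lower and none was higher, against 25.2% of all probe sets called, 9.73% higher and 15.5% lower. At 3 d the same genes, EXPA4 and EXPA9, were lower and none was higher, against 36.9% called, 15.9% higher and 21% lower. A count of 2 lower in 10 is close to the background shares called lower at 1 d and 3 d. The median change of the members was 0.04 at 8 h, 0.02 at 1 d and -0.03 at 3 d, and over all probe sets it was -0.00, -0.00 and 0.03.

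**Figure D3:**
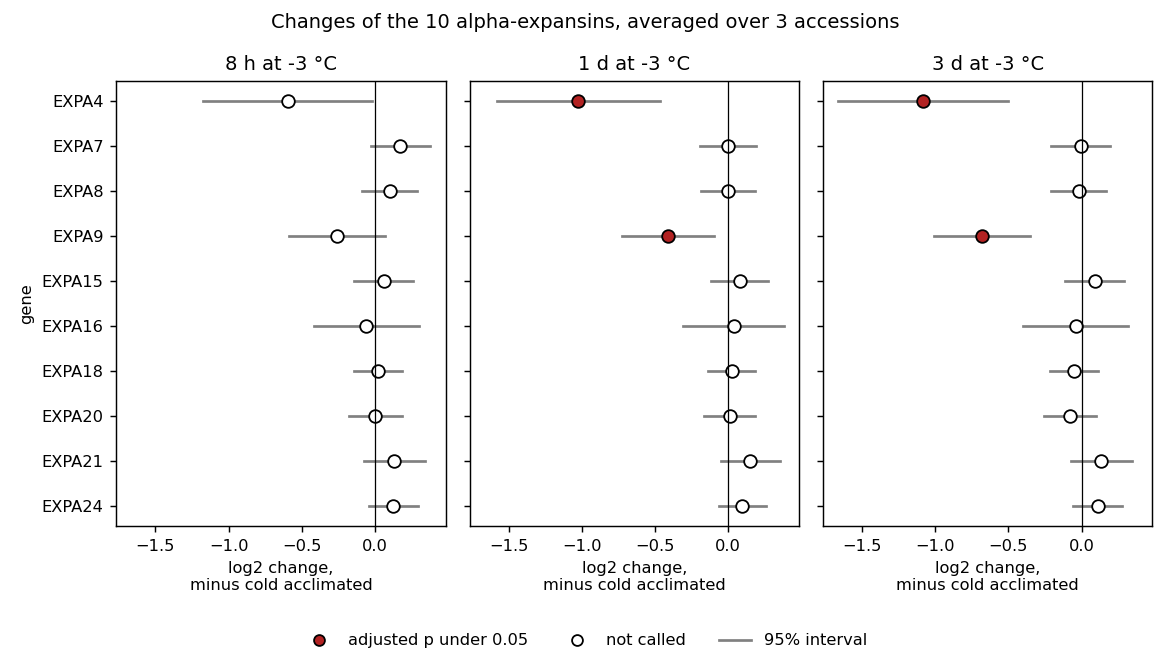
Log2 change of the 10 alpha-expansins at 8 h, 1 d and 3 d at -3 °C against cold acclimated leaves, as the mean of the accessions, with bars for 95% intervals. Only EXPA4 and EXPA9 have intervals below 0 at 1 d and 3 d, and the changes of the other 8 members lie between -0.08 and 0.17.

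The other 8 members stayed within narrow limits. In 6 of them no group mean reached the dim level. Signal over background limits the change that such a probe set can show, so narrow limits there do not show a steady transcript. The averaged changes of all 8 at 8 h lay between -0.06 for EXPA16 and 0.17 for EXPA7, with 95% intervals inside -0.42 to 0.37. At 1 d they lay between -0.00 for EXPA8 and 0.15 for EXPA21, with intervals inside -0.31 to 0.38, and at 3 d between -0.08 for EXPA20 and 0.14 for EXPA21, with intervals inside -0.40 to 0.34. Their smallest limma adjusted p was 0.300 at 8 h, 0.267 at 1 d and 0.303 at 3 d. Among them, EXPA15 and EXPA20 were above the dim level on every array. EXPA15 had a median of 6.23 at CA, 6.41 at 8 h, 6.31 at 1 d and 6.41 at 3 d, and EXPA20 had medians of 5.81, 5.72, 5.78 and 5.64 in the same order. The lowest array of EXPA15 read 5.73 and the highest 6.75, and EXPA20 read 5.35 to 6.11. The intervals at 1 d and 3 d did not reach the estimates of EXPA4 or EXPA9 at the same times. This leaves out the error of those estimates, and a difference between genes was not tested.

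Between successive sub-zero times, none of 20 member changes was called, against 4.75% over all probe sets, and none had an unadjusted p under 0.05 by limma. EXPA4 at 1 d was -0.43 ± 0.28 (SE) from its level at 8 h, and at 3 d it was -0.06 ± 0.28 (SE) from its level at 1 d. EXPA9 gave -0.16 ± 0.16 (SE) and -0.27 ± 0.16 (SE) for the same steps. The data therefore do not settle between which times either gene changed.

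Within single accessions, 1 of 90 member changes was called by limma, against 6.47% over all probe sets, and 7 had an unadjusted p under 0.05. The call was EXPA9 in Col at 3 d, which fell by 0.93 ± 0.30 (SE) (limma adjusted p = 0.0346), against 15.8% of all probe sets called in that contrast and 9.86% called lower. It was lost on leaving out either Col 3 d array or the cold acclimated Col arrays numbered 1 or 3, and in 4 of 12 alternatives. Among these were the arrays with the higher bioC controls alone, which left 1 array of Col at 3 d and gave a difference of -0.41. At 3 d EXPA9 was at -0.38 ± 0.27 (SE) in Te (adjusted p = 0.412) and at -0.74 ± 0.27 (SE) in Rsch (adjusted p = 0.0781, limma). EXPA4 at 3 d was at -1.10 ± 0.47 in Te, -0.64 ± 0.47 in Rsch and -1.50 ± 0.52 in Col (SE), with limma adjusted p of 0.128, 0.43 and 0.0517. Without the Rsch 3 d array numbered 1, on which EXPA4 read 7.18, the Rsch difference at 3 d was -0.85 for EXPA4 and -0.61 for EXPA9 (limma adjusted p = 0.328 and 0.195). At 1 d the differences of EXPA4 were -0.54 in Te, -1.15 in Rsch and -1.39 in Col, and at 8 h they were -0.77, -0.45 and -0.57 in the same order. The Te value at 1 d includes the array numbered 1, on which EXPA4 read 7.75, against 5.46 and 5.51 on its group mates. EXPA4 in Col at 3 d passed the test on leaving out any of 8 arrays, with adjusted p of 0.0138 to 0.0496. Without the Te 1 d and Te 3 d arrays numbered 1, EXPA4 was called in Te at 3 d, in Rsch at 1 d and in Col at 1 d and 3 d. The same changes of EXPA4, and EXPA9 in Rsch at 3 d, were called with accession and replicate number as a random block. No label ties arrays of the same number to each other.

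Whether the change from cold acclimated leaves was equal in the 3 accessions was tested directly. None of 30 F tests, 3 times for each member, was called by limma, against 0.0205% over all probe sets, and the smallest unadjusted p was 0.232. A test over groups of 2 or 3 arrays does not show that the accessions responded alike.

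In levels between accessions, none of 120 member differences was called, against 4.54% over all probe sets, and 5 had an unadjusted p under 0.05 by limma. By group means EXPA4 was lowest in Te in all 4 conditions, though at 1 d Te and Rsch differed by only -0.03. In cold acclimated leaves it averaged 6.77 ± 0.84 in Te, 7.42 ± 0.21 in Rsch and 8.00 ± 0.42 in Col (SD, n = 3 each), and the difference of Te from Col was -1.23 ± 0.47 (SE, limma adjusted p = 0.143). At 8 h that difference was -1.43 ± 0.52 (SE, limma adjusted p = 0.143), at 1 d -0.38 ± 0.47 and at 3 d -0.83 ± 0.52. The differences of Te from Rsch and from Col at 1 d include the Te array numbered 1. On that array EXPA4 read 7.75, against 5.46 and 5.51 on its group mates. Of Te from Rsch the difference of EXPA4 at 3 d was -1.10 ± 0.47 (SE, limma adjusted p = 0.226). Without the Te 1 d and Te 3 d arrays numbered 1, the difference of Te from Rsch at 3 d was -1.41 and that of Te from Col at 8 h was -1.43 (limma adjusted p = 0.0395 and 0.0367). One array set much of the spread behind the cold acclimated value, reading 7.74 in Te leaves where the other Te arrays read 6.40 and 6.18. It is the array numbered 1 and has low bioC controls. Without that array the cold acclimated difference of Te from Col was -1.71 (limma adjusted p = 0.0365), and without the Te 1 d and Te 3 d arrays numbered 1 it was -1.23 (limma adjusted p = 0.0388). With array weights the same difference was -1.47 (limma adjusted p = 0.0236). Among the 25 arrays with the higher bioC controls it was -1.92. The array's probes follow the Columbia-0 sequence, so a lower level and a poorer match of a probe set in Te or Rsch cannot be told apart.

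Ordered by group mean, EXPA4 ran from 8.00 in cold acclimated Col leaves through 7.43 in Col at 8 h and 7.42 in cold acclimated Rsch leaves to 5.67 in Te at 3 d. Of the 11 pairs of neighbours in that order, 10 overlapped in their arrays, and the exception was the pair at the top. EXPA9 had its highest group means, 5.60 each, in cold acclimated Te and Col leaves, followed by 5.38 in cold acclimated Rsch leaves, and its lowest, 4.64 and 4.68, in Rsch and Col at 3 d. For EXPA9 all 11 neighbouring pairs overlapped. At 3 d Te held EXPA9 at 5.22 ± 0.36 (SD, n = 3), against 4.64 ± 0.31 in Rsch (SD, n = 3) and 4.68 ± 0.37 in Col (SD, n = 2), and neither difference passed the test (limma adjusted p = 0.273 and 0.398).

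Across the 12 group means, the probe sets whose pattern was most like that of EXPA4, among 13512 with a single gene, were those of AT5G27950 (Pearson r = 0.964), AT5G25770 (r = 0.957) and AT1G01730 (r = 0.940). AT5G27950 changed by -0.37, -0.80 and -0.89 at 8 h, 1 d and 3 d, averaged over accessions. For EXPA9 they were AT4G39955 (r = 0.956), AT5G23460 (r = 0.946) and AT4G18820 (r = 0.946), and AT5G23460 changed by -0.54, -0.77 and -1.16 at the same times. None of these is an alpha-expansin, and the points share their arrays, so the coefficients only describe these groups. The other members correlated with EXPA4 between -0.40 for EXPA24 and 0.41 for EXPA8.

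Array quality was read beside these changes. The 3′ minus 5′ difference of the actin control probe sets, which grows as RNA degrades or amplification falls short, was 1.74 ± 0.30 at CA (SD, n = 9), 1.44 ± 0.18 at 8 h (SD, n = 8), 1.65 ± 0.40 at 1 d (SD, n = 9) and 1.86 ± 0.49 at 3 d (SD, n = 8). It averaged 2.21 on the 9 arrays with low bioC controls and 1.48 on the other 25. With the bioC set as a block, EXPA4 fell by 1.03 at 1 d and by 1.11 at 3 d, and EXPA9 fell by 0.41 and 0.69 (limma adjusted p = 0.00351, 0.00162, 0.0429 and 0.00105). None of the 8 h arrays had low bioC controls. At 8 h the same block put EXPA4 at -0.44 and EXPA9 at -0.20 (limma adjusted p = 0.425 and 0.571). The part of RNA quality in the changes of EXPA9 was not tested further.

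The related families of the expansin superfamily gave other patterns. Expansin-like A and B proteins carry the same domains as expansins, but no wall-loosening activity has been shown for them. A listed gene counted as measured, here and below, if a probe set was annotated to it alone. Of 10 listed beta-expansins and expansin-like genes 8 were measured. At 8 h 2 were higher and none lower. At 1 d 3 were higher and 1 lower, and at 3 d 3 were higher and 2 lower. Over all probe sets 3.36% were called higher and 2.59% lower at 8 h. These shares were 9.73% and 15.5% at 1 d, and 15.9% and 21% at 3 d. The medians of the 8 genes were 0.11, 0.09 and 0.19. EXLA3 averaged 7.68, 9.43, 9.92 and 9.74 in Te at CA, 8 h, 1 d and 3 d, and 5.96, 8.80, 10.24 and 9.06 in Rsch. In Col it averaged 5.93, 7.57, 9.27 and 8.18. Averaged over accessions, EXLA3 rose by 2.08 ± 0.42 at 8 h, 3.29 ± 0.40 at 1 d and 2.47 ± 0.42 at 3 d (SE, limma adjusted p = 0.00274, 1.44e-06 and 5.28e-05). EXLA1 rose by 1.15, 1.17 and 1.30 at the same times (limma adjusted p = 0.0172, 0.0029 and 0.00098), and its call at 8 h was lost without the Col 8 h array numbered 1 (adjusted p = 0.0532). EXLA2 was at 0.69 at 8 h, which did not pass, and rose by 1.09 at 1 d and 1.19 at 3 d (limma adjusted p = 0.0872, 0.000815 and 0.000323). The EXLA genes resemble each other, so a shared signal between their probe sets was not tested.

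**Figure D4:**
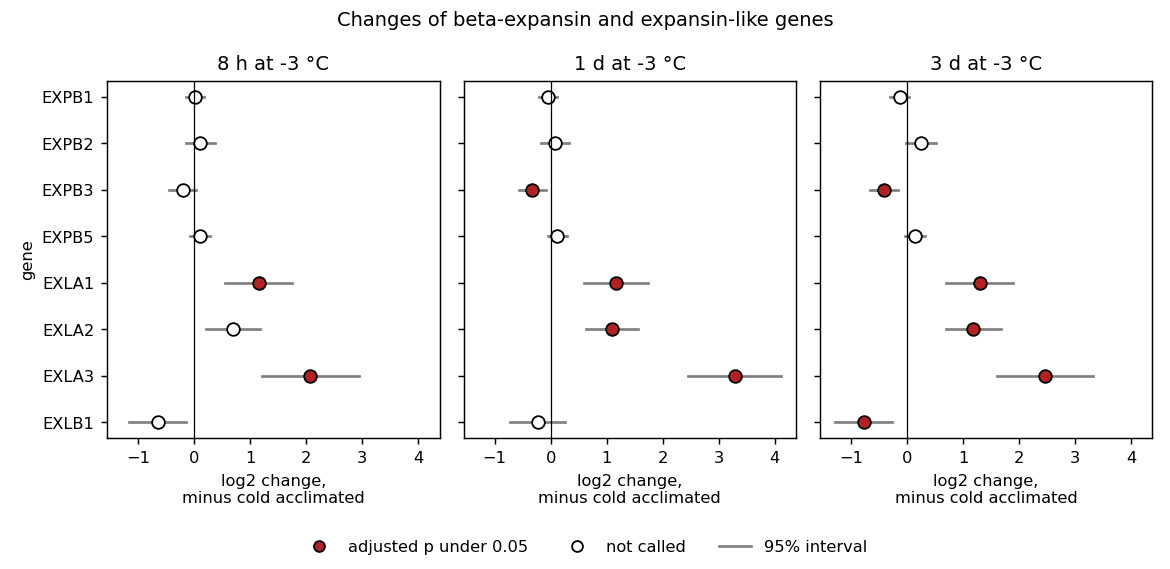
Log2 change of the 8 measured beta-expansins and expansin-like genes at 8 h, 1 d and 3 d at -3 °C against cold acclimated leaves, as the mean of the accessions, with bars for 95% intervals. EXLA1, EXLA2 and EXLA3 lie above 0 at 1 d and 3 d, and EXPB3 and EXLB1 lie below 0 at 3 d.

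The beta-expansin EXPB3 fell by 0.33 at 1 d and by 0.41 at 3 d, and expansin-like EXLB1 fell by 0.78 at 3 d (limma adjusted p = 0.04, 0.00915 and 0.0153). The call of EXPB3 at 1 d was lost in 4 of 11 alternatives and on leaving out any of 11 of the 34 arrays. Among the 25 arrays with the higher bioC controls, only 1 of which was from Col at 3 d, neither gene was called at 3 d. EXPB1, EXPB2 and EXPB5 were not called at any of these times. Xyloglucan endotransglucosylase/hydrolases, which cut and rejoin xyloglucan in the same walls, were measured for 5 of 14 listed genes. Of these, 2 were higher at 8 h and 5 at 1 d and 3 d, with medians of 0.67, 1.70 and 2.85. The shares called higher over all probe sets were 3.36%, 9.73% and 15.9%. Of 12 auxin response genes only IAA29, which encodes a repressor of auxin response, was measured, and it fell by 0.38 at 1 d (limma adjusted p = 0.0383) and was not called at 8 h or 3 d. Its call was lost in 2 of 12 alternatives and on leaving out any of 10 of the 34 arrays, and without the cold acclimated Rsch array numbered 1 the difference was -0.24. No probe set of a listed proton pump, of the 11, was annotated to it alone.

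Markers of leaf cell types were set beside the members. Of 8 leaf mesophyll markers 3 were measured, RCA, PRK and LHCB4.2, all of which serve photosynthesis. None was called at 8 h and all 3 were lower at 1 d and 3 d, with medians of -0.33, -0.60 and -1.66. Over all probe sets 2.59%, 15.5% and 21% were called lower at 8 h, 1 d and 3 d. These mesophyll markers thus fell in the same groups as EXPA4 and EXPA9, and their part in the result was not tested. The call of PRK at 1 d was lost with median centring (limma adjusted p = 0.0764) and on leaving out any of 14 of the 34 arrays. Of 7 guard cell markers 2 were measured, FAMA and GC1, and neither was called at any time. Of the 8 root hair and 6 vascular markers listed none had a probe set annotated to it alone. That is a limit of the annotation used and does not show that the array lacks them.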

How the data were processed

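Transcripts were measured on 34 arrays, and each array's title gave its group. The cold acclimated arrays titled replicate 3 carry the number 2 in another label, which was set aside. The labels describe 3 independent biological replicates. The deposited table holds log2 values that the authors summarised to probe sets by RMA, as named in the submitters' processing notes; its version is not given in the sources used here. RMA normally gives all arrays one overall distribution, so differences are relative. The number of arrays limits the precision.

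Of 22810 probe sets, 64 controls were left out and 22746 were tested without a filter. Names came from a platform annotation updated through a RefSeq table (TAIR10.1), used for names and neighbours only: 13513 probe sets had 1 gene, 503 several, and 8730 were unnamed here. One mean was fitted to each of 12 groups, with 22 residual degrees of freedom, in limma 3.58.1 (R 4.3.3; lmFit, eBayes, two-sided, Benjamini-Hochberg over all tested probe sets within a contrast, called under 0.05). Figures used Python 3.11.15 and matplotlib 3.10.9. The fit was tested on simulated data. All members were named, and from the gene lists those called, plus the 3 probe sets most correlated with each called member. Members and lists were chosen with earlier results of these data known. There were 12 alternatives, and each array was left out in turn.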

Additional observations from a re-analysis of the deposited data

How the results depend on the processing

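The falls of EXPA4 at 1 d and 3 d kept their call in all 12 alternatives (-1.28 to -0.94 and -1.23 to -0.98) and on leaving out each of the 34 arrays, and no result reversed. The fall of EXPA9 at 3 d was called in 11 of 12 and without each array. Members called at 1 d numbered 2, and 1 after quantile normalization again, median centring, array weights, fitting only the arrays compared, the larger bioC set alone, or without the Te 1 d and Te 3 d arrays numbered 1. At 3 d the 2 called members became 1 in the larger bioC set. Changes called within accessions, 1 as reported, were 0 with median centring, 2 without dim probe sets, with array weights, with only the arrays compared and in the larger bioC set, 3 with the bioC set as a block, 4 with the replicate block, 5 without those Te arrays and 6 with accession and replicate number as a random block. That last fit added EXPA4 in Te at 3 d, in Rsch at 1 d and in Col at 1 d and 3 d, and EXPA9 in Rsch at 3 d (limma adjusted p = 0.0293, 0.0373, 0.00982, 0.0101 and 0.0306). With array weights, only the arrays compared or the larger bioC set, both calls were of EXPA4 and that of EXPA9 in Col at 3 d was lost. Differences called between accessions, 0 as reported, were 3 with array weights, 2 in the larger bioC set and 3 without those Te arrays; with array weights EXPA4 in Te was -1.37 from Rsch at 3 d (adjusted p = 0.0298), and in the larger bioC set -1.43 from Col at 8 h (adjusted p = 0.018). Leaving out single arrays gave 0 at 8 h, 1 to 2 at 1 d, 2 at 3 d, 0 to 4 within accessions, 0 between successive times, 0 to 2 between accessions and 0 F tests. Whether replicate numbers pair the arrays was not settled: the deviations of same-numbered arrays of an accession correlated from -0.24 to 0.60, with 44 of 49 pairs over 0.1 and the others all involving Te at 3 d, and 33 of 34 arrays correlated best with their own number, which is a hint from the data and not from the design. No label states a batch or day shared by arrays of the same number, so no block was used for the reported values. With the replicate block EXPA4 was at -0.62 at 8 h, -1.03 at 1 d and -1.11 at 3 d, and EXPA9 at -0.29, -0.41 and -0.71. Median centring moved the median of all probe sets at 3 d to 0.13, against 0.03, and left the directions of EXPA4 and EXPA9 as they were. Arrays give intensities, not counts, so dim members are limited by signal over background.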
